A study of Mus musculus with 14 samples.

Results

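Ceramide, the lipid at the centre of sphingolipid metabolism, is built from serine and palmitoyl-CoA by a short chain of enzymes. The 10 genes described here encode enzymes of this de novo route and were taken by their symbols, Sptlc1, Sptlc2, Sptssa, Kdsr, Cers2, Cers4, Cers5, Cers6, Degs1, and Degs2. They are 10 of the 21878 genes in the kidney RNA-seq tables, and all 10 were expressed above the floor for testing. The question is how their mRNA changed with diabetes in each genotype, and how abundant the enzymes of each step were relative to each other.

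Kidney RNA came from 14 male C57BL/6J mice, young adults at the start by the study's methods, with 1 library per mouse. WT diabetic mice (n = 4) and Cfb-/- diabetic mice (n = 4) had been fed a high-fat diet with 60% of calories from fat for 4 weeks and then injected with streptozotocin (STZ), a toxin of the insulin-producing beta cells, at 60 mg/kg for 5 days. WT control mice (n = 3) and Cfb-/- control mice (n = 3) had received chow with 10% of calories from fat and the citrate buffer alone. The diabetic groups therefore differed from the controls in both diet and STZ, and the effects of the 2 cannot be told apart. By the study's methods, all mice were killed several months after the injections. A time point of 34 weeks is stated in the labels with no starting point, and the gene deletion is called a knockdown there. Cfb, which encodes complement factor B, was listed at an FPKM of 1.13 to 2.22 in the 7 Cfb-/- mice and of 56.7 to 131 in the 7 WT mice, so that every library matched its genotype. By the study's own account Cfb was deleted in the whole animal and not in a chosen cell type.

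In de novo synthesis, serine palmitoyltransferase joins serine and palmitoyl-CoA, and its product is reduced by KDSR. A ceramide synthase then adds a fatty acid whose chain length depends on the synthase, and a desaturase introduces the double bond that turns dihydroceramide into ceramide. Ceramides accumulate in several tissues in diabetes and obesity, and the kidney tubule is rich in sphingolipids with very long and hydroxylated chains.

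Among the 10 genes, Degs2 fell in both genotypes, to less than a fold change of 0.5, and no diabetic mouse reached the level of any control mouse. Sptlc2 and Cers4 rose in both genotypes on the deposited scale, calls that depended on the scaling. Sptlc1 had log2 fold changes of -0.25 in WT mice, which just passed, and of -0.24 in Cfb-/- mice, which did not. The most abundant members, Cers2 and Degs1, passed in neither genotype on that scale, whereas with median-ratio scaling Cers2 passed as lower in WT mice and Degs1 in both genotypes. The order of the 2 large subunits of serine palmitoyltransferase also differed between diabetic and control mice, with Sptlc1 above Sptlc2 in 6 of 6 control mice and in 0 of 8 diabetic mice.

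The upstream sequences of Degs2, Sptlc2, and Cers4 are shown because these 3 genes passed the test in both genotypes, Degs2 in 1 direction and the other 2 in the opposite one. Each run is the 250 bases before the annotated RefSeq start, on build GRCm38.p6, written 5′ to 3′ on the strand of the gene. Capitals mark matches to the GC box (GGGCGG on either strand) or the CCAAT box (CCAAT on either strand).
Degs2, chr12:108702307-108702556, minus strand: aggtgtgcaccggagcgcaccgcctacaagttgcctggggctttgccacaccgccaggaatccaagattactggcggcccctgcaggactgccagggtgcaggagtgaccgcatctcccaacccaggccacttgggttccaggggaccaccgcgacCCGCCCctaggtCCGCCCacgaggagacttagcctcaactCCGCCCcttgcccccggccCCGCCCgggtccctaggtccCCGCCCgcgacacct
Sptlc2, chr12:87388356-87388605, minus strand: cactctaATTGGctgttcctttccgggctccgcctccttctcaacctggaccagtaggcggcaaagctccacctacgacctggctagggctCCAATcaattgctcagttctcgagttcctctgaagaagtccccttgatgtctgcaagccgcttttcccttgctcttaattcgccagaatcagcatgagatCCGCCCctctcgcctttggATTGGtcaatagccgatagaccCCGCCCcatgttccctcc
Cers4, chr8:4493155-4493404, plus strand: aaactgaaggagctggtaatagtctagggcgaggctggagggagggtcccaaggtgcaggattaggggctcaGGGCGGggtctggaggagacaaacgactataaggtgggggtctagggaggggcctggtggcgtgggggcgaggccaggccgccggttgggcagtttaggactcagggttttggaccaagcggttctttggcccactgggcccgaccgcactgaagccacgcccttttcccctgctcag

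The Degs2 window held 5 GC boxes and 0 CCAAT boxes, the Sptlc2 window 2 GC boxes and 3 CCAAT boxes, and the Cers4 window 1 GC box and 0 CCAAT boxes. The Cers4 window lies inside the annotated span of the gene, which begins at base 4492818 of chromosome 8, since the start used is a later one. A TATA box (TATAAA on either strand) was in 0 of the 3. For comparison, 32.9% of 27025 promoter windows of the same length held a GC box, 34.5% a CCAAT box, and 13.0% a TATA box. These matches describe the letters only, and all 10 members had an entry in the promoter table.

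The deposited unit is not named and was inferred from the values to be FPKM. In this unit a gene's fragments are divided by its transcript length and by the depth of the library. Levels of different genes can then be set side by side, as far as the inference holds. Read totals are not known. Steps between low values gave relative depths of 0.816 to 1 across the 14 mice, with the first Cfb-/- diabetic mouse set to 1. FPKM summed to 330246 to 364953 in the diabetic mice and to 372884 to 488196 in the control mice, highest in WT control mouse 2. A single gene, Kap, which encodes the androgen-regulated protein of the proximal tubule, held 10.2% to 13.9% of this sum in the control mice and 1.98% to 4.60% in the diabetic mice. Changes were tested with limma on log2(FPKM + 0.1) in 1 fit of all 14912 genes that reached an FPKM of 0.1 in at least 3 mice, with Benjamini-Hochberg adjustment over all of them. On this scale the median change of all tested genes was not 0 but 0.29 in WT mice and 0.22 in Cfb-/- mice, and the members' changes are therefore also given relative to it.

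With the threshold of an adjusted p of 0.05, 4 of the 10 members passed in WT mice, 2 higher and 2 lower, against 46.1% of all tested genes, of which 36.2% of tested genes were higher and 9.97% lower. In Cfb-/- mice 3 of 10 passed, 2 higher and 1 lower, against 33.8% of all tested genes, 27.4% higher and 6.40% lower. The members' share of calls was thus close to that of all genes. The median log2 fold change of the members was -0.11 in WT mice and -0.07 in Cfb-/- mice, below the medians of all genes. The thresholds of the study were an unadjusted p under 0.05 with a fold change over 2 or under 0.5. They were applied here to the limma fit, not to the study's negative binomial test. By them 1 member passed in each genotype, Degs2, against 17.5% of all genes in WT mice and 14.9% in the Cfb-/- comparison. The diabetic and control mice did not overlap for 5 members in WT mice, 2 higher and 3 lower with diabetes, against 45.3% of all genes, 35.5% higher and 9.84% lower. For Cfb-/- mice there were 3 such members, 1 higher and 2 lower, against 42.2% of all genes, 33.6% higher and 8.64% lower.

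These counts depended on how the libraries were scaled. With median-ratio scaling, 7 members passed in WT mice, 1 higher and 6 lower, against 6568 of 14912 tested genes, 3633 higher and 2935 lower. In Cfb-/- mice 5 passed, all 5 lower, against 4756 of 14912 genes, 2912 higher and 1844 lower. In that scaling the share of higher calls among all called genes went from 78.4% to 55.3% in WT mice and from 81.0% to 61.2% in Cfb-/- mice. With quantile normalization it was 44.2% and 49.1%, and 4 and 3 members passed, against 5358 and 4374 of 14912 genes. The fall of Degs2 passed in every one of these scalings.

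**Figure D1:**
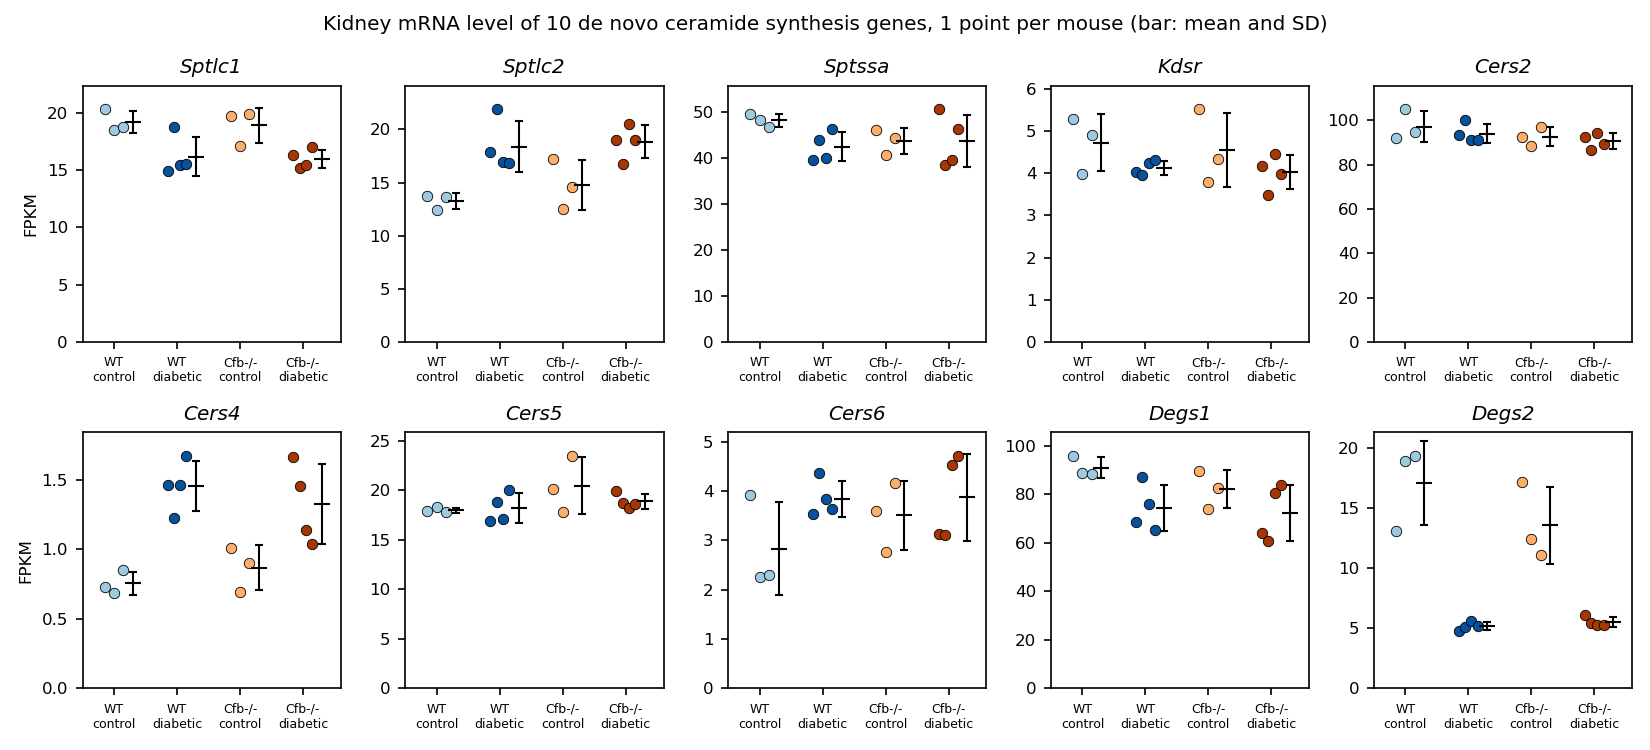
FPKM of the 10 members in the 14 mice, 1 panel per gene with its own linear axis from 0, 1 point per mouse, and mean and SD beside the points. Degs2 lies between 4.79 and 6.14 in the diabetic mice and between 11.2 and 19.4 in the controls, whereas Cers2 stays between 86.6 and 105 in all mice.

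The levels of the members spanned a range from below 1 to over 100 FPKM. Over the 14 mice, Cers2 was the highest with a mean of 93.5 FPKM, and it lay above Degs1 (78.9) in 13 of 14 mice. Degs1 exceeded Sptssa (44.3) in 14 of 14 mice, and Sptssa exceeded Cers5 (18.8) in 14 of 14. Cers5, Sptlc1 (17.3), and Sptlc2 (16.6) were neighbours that did not keep their order, since Cers5 lay above Sptlc1 in 11 of 14 mice and Sptlc1 above Sptlc2 in 6 of 14. Sptlc2 lay above Degs2 in 12 of 14 mice. Degs2 (9.65) lay above Kdsr (4.32) in 14 of 14 mice, and Kdsr lay above Cers6 (3.56) in 11 of 14. Cers4 was the lowest at 1.14 FPKM and lay below Cers6 in 14 of 14 mice.

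Among all tested genes of a mouse, Cers2 stood between the 95.3rd and the 96.1st percentile in all groups. Degs2 moved from a median percentile of 81.5 in WT control mice to 51.5 in WT diabetic mice, and from 75.3 to 52.2 in Cfb-/- mice. Cers4 stood at 25.7 and 27.2 in WT mice and at 25.4 and 25.0 in Cfb-/- mice, so that its place among the genes of a mouse hardly moved.

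The first step of the route is catalysed by serine palmitoyltransferase. Sptlc1 and Sptlc2 encode its large subunits, of which SPTLC2 carries the pyridoxal phosphate cofactor, and Sptssa encodes a small activating subunit. Sptlc2 was at 13.8, 12.4, and 13.7 FPKM in WT control mice and at 17.9, 21.9, 16.9, and 16.8 in WT diabetic mice. All 4 diabetic WT mice lay above all 3 controls, with 13.3 ± 0.77 (SD, n = 3) against 18.4 ± 2.39 (SD, n = 4). This was a log2 fold change of 0.46 with an SE of 0.12 (limma adjusted p = 0.00803), or 0.17 above the median change of all genes.

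In Cfb-/- control mice, Sptlc2 was at 17.2, 12.5, and 14.6 FPKM, and in Cfb-/- diabetic mice at 19.0, 16.8, 20.6, and 19.0. The groups overlapped, since the first control lay above the second diabetic mouse. Sptlc2 rose here by a log2 fold change of 0.36 with an SE of 0.12 (limma adjusted p = 0.0367), or 0.14 relative to all genes. This call was lost with median-ratio scaling (adjusted p = 0.362) and quantile normalization (0.129). It was also lost without any 1 of Cfb-/- diabetic mice 1, 3, and 4 and Cfb-/- control mice 2 and 3 (log2 fold change 0.25 to 0.35, adjusted p = 0.0635 to 0.185), with the replicate number as a block (adjusted p = 0.0597), and with the 2 Cfb-/- groups alone (0.0542). The rise in WT mice missed the threshold with median-ratio scaling (0.135).

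Sptlc1 was at 20.3, 18.4, and 18.8 FPKM in WT control mice and at 14.9, 18.7, 15.4, and 15.6 in WT diabetic mice. In this comparison 3 of 4 diabetic mice lay below every control, and the second diabetic mouse lay within the control range. Sptlc1 fell by a log2 fold change of 0.25 with an SE of 0.10 and just passed (limma adjusted p = 0.0495). The call was lost in 12 of the 14 fits that left out 1 mouse, all except those without WT diabetic mouse 2 or Cfb-/- control mouse 2 (log2 fold change -0.28 to -0.21, adjusted p = 0.0565 to 0.126). It was lost as well with the replicate number as a block (adjusted p = 0.0901) and with the 2 WT groups alone (0.104), and it was kept with median-ratio scaling (-0.49, adjusted p = 0.00141). The values in Cfb-/- mice were 19.7, 17.1, and 19.8 FPKM in controls and 16.3, 15.2, 15.4, and 17.0 with diabetes, without overlap. The log2 fold change of -0.24 missed the threshold (limma adjusted p = 0.0740). With median-ratio scaling it passed (0.00319), as it did with quantile normalization (0.00630) and without Cfb-/- control mouse 2 (-0.31, adjusted p = 0.0486).

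A ratio of 2 genes within a mouse does not depend on the scaling of the library as a whole. The ratio of Sptlc2 to Sptlc1 was 0.678, 0.671, and 0.727 in WT control mice and 1.20, 1.17, 1.10, and 1.08 in WT diabetic mice. The Cfb-/- mice had ratios of 0.874, 0.732, and 0.733 in controls and 1.17, 1.10, 1.33, and 1.12 with diabetes. The diabetic mice of both genotypes thus lay above 1 and the controls below it. Over both genotypes the ratio rose 1.58-fold, a log2 change of 0.66 (exact permutation p = 0.00163, diabetes permuted within each genotype, two-sided). That p is the smallest the 1225 assignments can give, and it was 0.00327 after Benjamini-Hochberg adjustment over the 6 ratios examined. The change was 0.72 in WT mice and 0.60 in Cfb-/- mice on the log2 scale (exact permutation p of the difference = 0.459).

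Sptssa, with a mean of 55.2% to 59.8% of the summed FPKM of the 3 subunit genes in the 4 groups, was the most abundant of them. It was at 49.5, 48.2, and 46.8 FPKM in WT control mice and at 39.6, 43.9, 40.0, and 46.2 in WT diabetic mice, without overlap, and the log2 fold change of -0.19 did not pass the test (limma adjusted p = 0.154). With median-ratio scaling it was -0.42 and passed (adjusted p = 0.00474). The Cfb-/- control mice were at 40.6 to 46.0 and the Cfb-/- diabetic mice at 38.5 to 50.6 FPKM, with a log2 fold change of -0.01 (limma adjusted p = 0.972). The ratio of Sptssa to Sptlc1 rose 1.11-fold over both genotypes (exact permutation p = 0.0245, adjusted p = 0.0367 over the 6 ratios). Leaving out WT control mouse 1 gave an exact p of 0.0686.

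The share of Sptlc2 in the summed FPKM of the 3 genes was 16.5% ± 0.78 (SD, n = 3) in WT control mice and 23.9% ± 1.95 (n = 4) in WT diabetic mice. The corresponding shares in Cfb-/- mice were 19.0% ± 1.55 (n = 3) and 24.1% ± 2.21 (n = 4). The sum itself was 80.6 ± 2.6 FPKM in WT control and 77.0 ± 5.8 in WT diabetic mice, and 77.3 ± 6.5 and 78.5 ± 6.9 in Cfb-/- mice. The composition of the step shifted. On the deposited scale the means of the sum differed by less than the larger SD in either genotype. Median-ratio scaling divides by factors of 0.809 to 0.941 in WT control mice and 1.017 to 1.077 in WT diabetic mice. In Cfb-/- mice the factors were 0.902 to 0.966 and 1.055 to 1.15. Such scaling would therefore lower the diabetic sums relative to the controls.

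**Figure D2:**
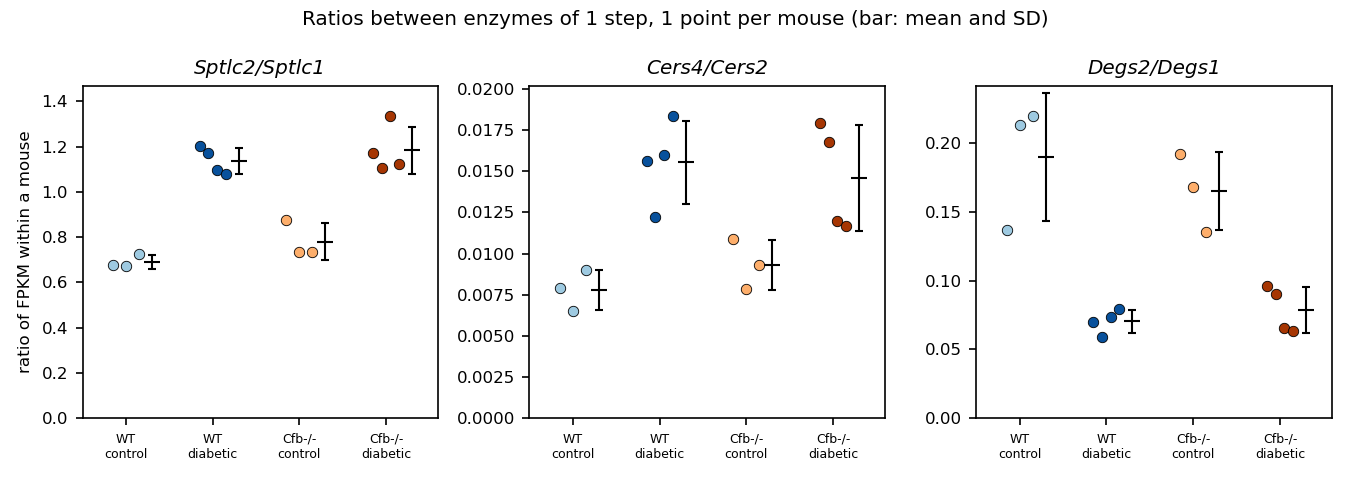
Ratio of FPKM within a mouse for Sptlc2 to Sptlc1, Cers4 to Cers2, and Degs2 to Degs1, 1 point per mouse with mean and SD, linear axes from 0. In all 3 panels the diabetic mice of a genotype do not overlap with its controls, with the first 2 ratios higher and the ratio of Degs2 to Degs1 lower.

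KDSR reduces the product of serine palmitoyltransferase. Kdsr was low, at 5.30, 3.98, and 4.90 FPKM in WT control mice and 3.96 to 4.31 in WT diabetic mice, with overlap of the 2 groups. The Cfb-/- mice ranged from 3.80 to 5.52 in controls and from 3.49 to 4.46 with diabetes. Its log2 fold change was -0.18 with an SE of 0.14 in WT mice and -0.17 in Cfb-/- mice (limma adjusted p = 0.312 and 0.395). Relative to the median of all genes these values were -0.47 and -0.39. With median-ratio scaling the difference passed in both genotypes, in the lower direction (adjusted p = 0.0166 and 0.0367), and with quantile normalization likewise (0.00503 and 0.00953).

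Ceramide synthases differ in the acyl chain they attach. CERS2 makes very long chain ceramides, CERS5 and CERS6 make mainly C16 ceramide, and CERS4 prefers chains of intermediate length. Cers2 mRNA dominated the step in every group. It was at 91.9, 105, and 94.6 FPKM in WT control mice and at 93.4, 100.2, 91.2, and 91.1 in WT diabetic mice. These ranges overlapped, and the log2 fold change of -0.05 with an SE of 0.08 did not pass (limma adjusted p = 0.650). Among Cfb-/- mice, Cers2 was at 88.6 to 96.9 in controls and 86.6 to 94.5 in diabetic mice (log2 fold change -0.03, limma adjusted p = 0.795). Relative to the median of all genes its change was -0.33 and -0.25 in the WT and Cfb-/- comparisons. Median-ratio scaling gave -0.28 in WT mice, which passed (adjusted p = 0.0398), and -0.24 in Cfb-/- mice (0.0974). Quantile normalization gave 0.12 and 0.05, so that the sign of its change depended on the scaling. The span of Cers2 overlaps Anxa9 and Setdb1 on the opposite strand.

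Cers4 rose. It was at 0.727, 0.683, and 0.849 FPKM in WT control mice and at 1.46, 1.22, 1.46, and 1.67 in WT diabetic mice, a mean of 0.753 ± 0.086 (SD, n = 3) against 1.45 ± 0.18 (SD, n = 4). For Cfb-/- mice the values were 1.01, 0.693, and 0.900 FPKM in controls and 1.66, 1.45, 1.13, and 1.04 in diabetic mice. The groups overlapped in neither genotype, although the lowest Cfb-/- diabetic mouse exceeded the highest control by a small step. Cers4 changed by a log2 fold change of 0.86 with an SE of 0.19 in WT mice (limma adjusted p = 0.00233) and 0.55 with an SE of 0.19 in Cfb-/- mice (adjusted p = 0.0367).

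This rise was not kept in every scaling. It passed in WT mice with median-ratio scaling (log2 fold change 0.65, adjusted p = 0.00621) but not with quantile normalization (0.17, adjusted p = 0.318). The rise in Cfb-/- mice missed the threshold with median-ratio scaling (0.36, adjusted p = 0.112) and turned to -0.05 with quantile normalization. It also missed it without any 1 of Cfb-/- diabetic mice 1 and 2 and Cfb-/- control mice 2 and 3 (0.41 to 0.58, adjusted p = 0.0640 to 0.164), with the replicate number as a block (adjusted p = 0.0576), and with the 2 Cfb-/- groups alone (0.0737). Within a mouse, the ratio of Cers4 to Cers2 rose 1.76-fold over both genotypes (exact permutation p = 0.00163, adjusted p = 0.00327 over the 6 ratios). It was 0.00650 to 0.00898 in WT control mice and 0.0122 to 0.0183 in WT diabetic mice, and 0.00783 to 0.0109 and 0.0117 to 0.0179 in Cfb-/- mice. The ratio was not computed after quantile normalization, in which Cers2 changed by 0.12 in WT mice and 0.050 in Cfb-/- mice.

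Cers5 and Cers6 did not pass the test on the deposited scale. Cers5 was at 17.8 to 18.3 FPKM in WT control mice and 16.9 to 20.1 in WT diabetic mice, with a log2 fold change of 0.01 (limma adjusted p = 0.924). The Cfb-/- mice gave a log2 fold change of -0.11 (adjusted p = 0.439), with means of 20.5 ± 2.86 FPKM (SD, n = 3) in controls and 18.9 ± 0.74 (SD, n = 4) with diabetes. With median-ratio scaling the value was -0.31 and passed (adjusted p = 0.0241). A change of its ratio to Cers2 was not detectable (0.995-fold over both genotypes, exact permutation p = 0.883).

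Cers6 was at 3.93, 2.26, and 2.30 FPKM in WT control mice and at 3.53, 4.36, 3.84, and 3.64 in WT diabetic mice. The first control lay among the diabetic mice, and the log2 fold change of 0.47 with an SE of 0.21 missed the threshold (limma adjusted p = 0.0851). Without WT control mouse 1 it was 0.72 (adjusted p = 0.0104), so 1 library decided this value. Cfb-/- mice ranged from 2.77 to 4.17 FPKM in controls and from 3.10 to 4.72 with diabetes, with a log2 fold change of 0.13 (adjusted p = 0.668). The ratio of Cers6 to Cers2 was 1.27-fold higher over both genotypes (exact permutation p = 0.0800). Leaving out WT control mouse 1 or Cfb-/- diabetic mouse 1 brought the p to 0.0343 and 0.0457.

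Cers2 accounted for 81.8% ± 1.46 (SD, n = 3) of the summed FPKM of the 4 synthases in WT control mice and for 80.0% ± 1.22 (n = 4) in WT diabetic mice. The share in Cfb-/- mice was 78.9% ± 1.70 (n = 3) and 79.0% ± 0.57 (n = 4). Cers4, in spite of its rise, went from 0.637% to 1.24% of the sum in WT mice and from 0.736% to 1.15% in Cfb-/- mice. The sum of the 4 genes was 118.8 ± 6.5 FPKM in WT control mice, 117.5 ± 4.9 in WT diabetic mice, 117.5 ± 7.8 in Cfb-/- control mice, and 114.8 ± 3.9 in Cfb-/- diabetic mice. On the deposited scale these means differed within a genotype by less than the larger SD. Median-ratio scaling would lower the diabetic sums relative to the controls here as well.

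**Figure D3:**
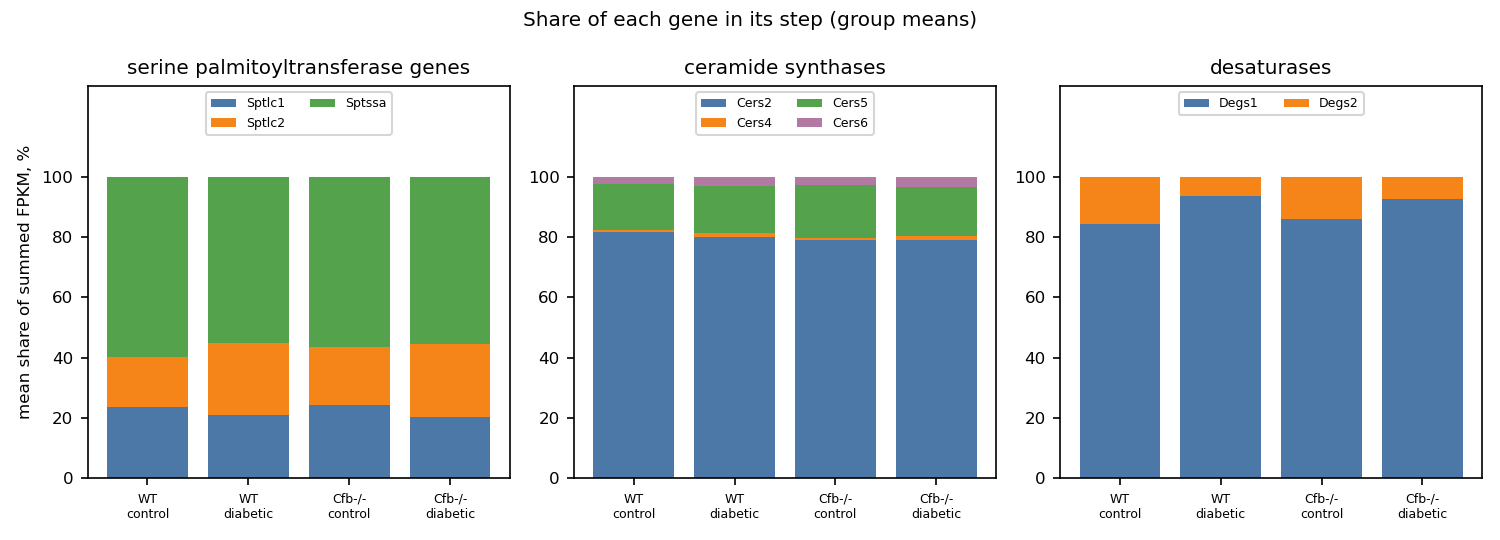
Mean share of each gene in the summed FPKM of its step, in percent, stacked to 100% per group (3 control and 4 diabetic mice per genotype). The Sptlc2 band is wider and the Degs2 band narrower in the diabetic groups, and Cers2 keeps 78.9% to 81.8% of the synthases.

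The last step is carried out by the dihydroceramide desaturases. DEGS1 introduces the double bond of ceramide, and DEGS2 is a second desaturase that can also hydroxylate dihydroceramide to phytoceramide. Degs2 showed the largest change with diabetes of the 10 genes. It was at 13.1, 18.9, and 19.4 FPKM in WT control mice and at 4.79, 5.15, 5.60, and 5.18 in WT diabetic mice. The diabetic mice lay close together, well below the lowest control, and the mean fell by 69.8%. On the log2 scale the change was -1.69 with an SE of 0.16 (limma adjusted p = 5.35e-06), and 0.523% of all tested genes had a lower value.

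Degs2 in Cfb-/- mice was at 17.2, 12.4, and 11.2 FPKM in controls and at 6.14, 5.48, 5.25, and 5.30 in diabetic mice. The groups did not overlap, and the mean fell by 59.2%. This was a log2 fold change of -1.26 with an SE of 0.16 (limma adjusted p = 4.73e-05), lower than in all but 1.16% of tested genes. An exact permutation test of 4 mice against 3 cannot go below 0.0571, which is the p it gave in each genotype. With diabetes permuted within both genotypes together it gave 0.00163, the smallest possible. The fall was -1.92 and -1.46 with median-ratio scaling, and over all alternatives it ranged from -1.92 to -1.53 in WT mice and from -1.49 to -1.08 in Cfb-/- mice. Without WT control mouse 2, whose FPKM sum was the highest, it was -1.60 in WT mice. The Degs2 gene shares its span with Evl and Gm33467 on the opposite strand. The libraries were stranded, but whether the counting used the strand is not given in the sources used here.

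Degs1 was the more abundant desaturase in all 14 mice. It was at 95.8, 88.7, and 88.4 FPKM in WT control mice and at 68.7, 86.9, 76.1, and 65.2 in WT diabetic mice, without overlap. The log2 fold change of -0.30 with an SE of 0.13 missed the threshold (limma adjusted p = 0.0702) and passed it without WT diabetic mouse 2 (-0.38, adjusted p = 0.0338). The Cfb-/- mice were at 89.6, 74.0, and 82.3 FPKM in controls and at 64.0, 60.8, 80.3, and 83.5 with diabetes, which overlapped (log2 fold change -0.19, adjusted p = 0.273). Relative to all genes the changes were -0.59 and -0.41, and with median-ratio scaling both passed (adjusted p = 0.00908 and 0.0491).

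The ratio of Degs2 to Degs1 was 0.137, 0.213, and 0.219 in WT control mice and 0.0697, 0.0593, 0.0736, and 0.0795 in WT diabetic mice. It was 0.192, 0.168, and 0.135 in Cfb-/- controls and 0.0960, 0.0901, 0.0654, and 0.0634 with diabetes. No diabetic mouse of either genotype reached a control. Over both genotypes the ratio fell to 0.423-fold (exact permutation p = 0.00163, adjusted p = 0.00327 over the 6 ratios). The share of Degs2 in the step fell from 15.9% ± 3.34 (SD, n = 3) to 6.58% ± 0.74 (n = 4) in WT mice and from 14.1% ± 2.10 (n = 3) to 7.28% ± 1.44 (n = 4) in Cfb-/- mice. Together the 2 desaturases summed to 108.1 ± 0.7 FPKM in WT control mice and 79.4 ± 9.7 in WT diabetic mice, and to 95.6 ± 10.4 and 77.7 ± 11.2 in Cfb-/- mice.

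**Figure D4:**
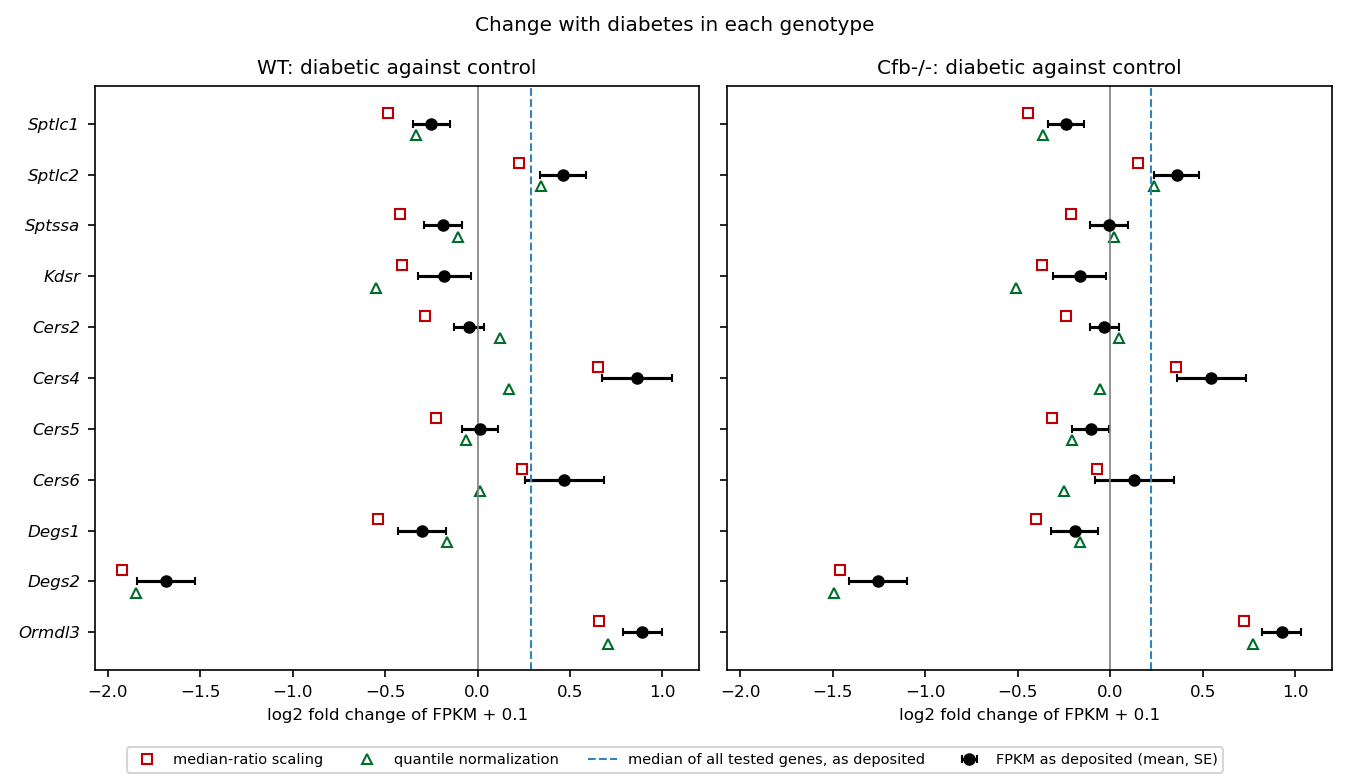
Log2 fold change of FPKM + 0.1 with diabetes for the 10 members and Ormdl3, WT mice on the left and Cfb-/- mice on the right. Black points with SE are the deposited values, open squares median-ratio scaling, open triangles quantile normalization, and the dashed line the median of all tested genes. Degs2 lies far to the left and Ormdl3 to the right in both panels and in all 3 scalings, whereas Cers4 depends on the scaling.

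Whether the change with diabetes differed between the genotypes was tested as an interaction. Of the members, 0 of 10 passed, as did 0% of all tested genes, with 861 of 14912 genes at an unadjusted p under 0.05 and 0 of the members among them. The difference, Cfb-/- minus WT, ran from -0.34 for Cers6 to 0.43 for Degs2 on the log2 scale (limma adjusted p = 0.779 to 0.990). When the genotype was permuted separately among diabetic and among control mice, the smallest exact p of a member was 0.111, for Degs2. Differences of this size were not detectable with these numbers of mice.

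The other genes of the route were described by a list of 7. ORMDL proteins bind serine palmitoyltransferase and restrain it when ceramide is plentiful. Ormdl3 was at 8.15, 8.26, and 8.39 FPKM in WT control mice and at 14.5, 15.5, 16.3, and 15.3 in WT diabetic mice. The Cfb-/- mice were at 8.68, 6.99, and 8.98 in controls and at 16.7, 17.2, 14.4, and 14.4 with diabetes. It rose in both genotypes without overlap, with log2 fold changes of 0.89 and 0.93, each with an SE of 0.11 (limma adjusted p = 2.86e-05 and 2.35e-05). The rise passed in all 22 alternatives in each genotype. Ormdl1 changed by 0.19 and -0.13 and Ormdl2 by -0.12 and -0.09 on the log2 scale, and neither passed in either genotype (limma adjusted p = 0.209 to 0.510). With median-ratio scaling Ormdl2 passed as lower in WT mice (-0.35, adjusted p = 0.0481) and Ormdl1 in Cfb-/- mice (-0.34, adjusted p = 0.0494).

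Of the 7 genes, 3 rose and 0 fell in WT mice, namely Ormdl3, Cers3, and Sptssb, and 1 rose and 0 fell in Cfb-/- mice, Ormdl3. Among all tested genes 36.2% passed as higher in WT mice and 27.4% in Cfb-/- mice. With median-ratio scaling 1 gene of the 7 fell in each genotype. The list had a median log2 fold change of 0.39 with WT and -0.13 with Cfb-/- mice. Sptlc3, an alternative large subunit, was at 0.0593 to 0.374 FPKM over all mice and did not pass (limma adjusted p = 0.381 and 0.741). Cers1, the synthase of neurons and muscle, was at 0.0289 to 0.260 FPKM and did not pass either (0.736 and 0.0599), although with quantile normalization Cers1 passed as lower in WT mice (-0.83, adjusted p = 0.0141). Its span overlaps Gdf1 on the same strand, so its values are uncertain. Both genes lay below Cers4, the lowest member, in every mouse.

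Cers3, known from skin and testis, had a listed value of 0 in each of the 3 WT controls and reached 0.0432, 0.294, 0.551, and 0.215 FPKM in WT diabetic mice (limma adjusted p = 0.00280). It was at 0.0247 to 0.137 in Cfb-/- controls and 0.0121 to 0.0258 in Cfb-/- diabetic mice (adjusted p = 0.315). Cers3 reached the filter of 0.1 FPKM only in WT diabetic mice 2, 3, and 4 and Cfb-/- control mouse 3. It was thus tested because of the group in which it is high. Its call in WT mice is therefore not independent of the filter. Sptssb, a second small subunit of serine palmitoyltransferase, was at 0, 8.99, 6.11, and 0.851 FPKM in WT diabetic mice and at 0, 0, and 0.0249 in WT controls (limma adjusted p = 0.0282, and 0.0616 with quantile normalization). Its values were 2.26, 0, and 1.86 in Cfb-/- controls and 0 to 0.242 in Cfb-/- diabetic mice (adjusted p = 0.251). Within WT diabetic mice the spread was thus wide, from 0 to several FPKM.

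Markers of urothelium, the lining of the renal pelvis, moved with these 2 genes. The summed FPKM of 6 markers (Upk1a, Upk1b, Upk2, Upk3a, Krt5, and Krt14) was 0.690, 34.4, 46.3, and 15.1 in WT diabetic mice 1 to 4, and 0.279 to 0.643 in WT controls. In Cfb-/- mice it was 8.72, 0.607, and 8.89 in controls and 1.22 to 3.15 with diabetes. Of the 6 markers, 6 rose in WT mice, against 36.2% of all tested genes, and 0 passed in Cfb-/- mice, against 33.8% in either direction. In all mice of any group, 0 of the 6 were at 0. The mice with the highest sums were those with the highest Sptssb and Cers3. The part of the markers in these values was not tested.

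**Figure D5:**
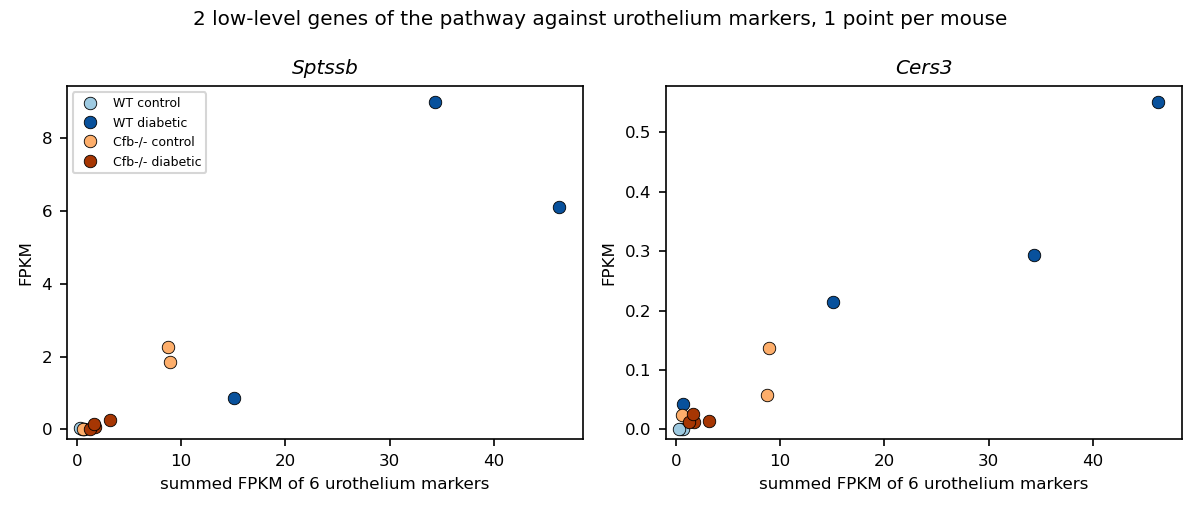
FPKM of Sptssb (left) and Cers3 (right) against the summed FPKM of 6 urothelium markers, 1 point per mouse, linear axes. WT diabetic mice 2, 3, and 4, with sums of 34.4, 46.3, and 15.1, and the 2 Cfb-/- control mice near 9 hold the higher values, and WT diabetic mouse 1, with a sum of 0.690, has Sptssb listed at 0.

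The enzymes that supply the substrates were taken as 3 lists. Beside their counts stand 36.2% of all tested genes higher and 9.97% lower in WT mice, and 27.4% and 6.40% in Cfb-/- mice. In the serine list (5 genes), 2 rose and 2 fell in each genotype. Phgdh, the first enzyme of serine synthesis, rose by a log2 fold change of 1.59 in WT mice and 1.63 in Cfb-/- mice (limma adjusted p = 0.000378 and 0.000373). Shmt2, the mitochondrial enzyme that uses serine, fell by 0.77 and 0.66 (adjusted p = 0.000280 and 0.00104). The summed FPKM of the list was 126 to 153 in WT control mice and 99.6 to 115 in WT diabetic mice, and 117 to 125 and 86.2 to 110 in Cfb-/- mice. Most of this sum was Shmt2, with means of 112 and 65.4 FPKM in WT control and diabetic mice and 93.2 and 59.7 in Cfb-/- mice. Phgdh was at means of 2.36 and 7.54 in WT mice and 2.64 and 8.26 in Cfb-/- mice.

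In the palmitoyl-CoA list (6 genes), 2 rose and 0 fell in WT mice, and 1 rose and 2 fell in Cfb-/- mice. With median-ratio scaling 2 and 3 of them fell. Acsl5, which activates long-chain fatty acids, rose by 0.97 and 0.90 on the log2 scale (limma adjusted p = 3.31e-05 and 5.91e-05). Fasn, the fatty acid synthase, fell by 0.70 in Cfb-/- mice (adjusted p = 0.00503), and its value in WT mice was -0.20 (adjusted p = 0.351), or -0.43 with median-ratio scaling, which passed (0.0435).

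In the list of very long chain acyl-CoA enzymes (10 genes, 9 tested), 3 rose and 3 fell in WT mice, and 1 rose and 4 fell in Cfb-/- mice. With median-ratio scaling 2 rose and 5 fell in WT mice, and 0 rose and 4 fell in Cfb-/- mice. Elovl6, which elongates palmitate, rose by 1.31 and 0.61 (limma adjusted p = 0.000221 and 0.0328), and in Cfb-/- mice its call was lost with median-ratio scaling (0.41, adjusted p = 0.107) and quantile normalization (0.25, adjusted p = 0.361). Hacd2, a dehydratase of the elongation cycle, fell by 0.70 and 0.89 (adjusted p = 0.000402 and 8.19e-05). The median log2 fold change of this list was -0.12 in WT mice and -0.06 in Cfb-/- mice.

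Markers of other cell types moved with diabetes, and in bulk RNA fewer cells of a type and less RNA per cell cannot be told apart. Of 8 proximal tubule markers, 6 fell in WT mice and 7 in Cfb-/- mice, and 0 rose, against 9.97% and 6.40% of all tested genes lower. The summed FPKM of the 8 proximal tubule markers was 2829 to 3290 in WT control and 1128 to 1452 in WT diabetic mice, and 2674 to 2985 and 882 to 1608 in Cfb-/- mice. Its largest part was Slc34a1, with means of 1776 and 703 in WT mice and 1515 and 633 in Cfb-/- mice. Cubn did not pass as lower in either genotype. All 6 markers of injured tubule (Havcr1, Krt20, Lcn2, Sox9, Spp1, and Vcam1) rose in both genotypes, from sums of 233 to 303 in controls to 1182 to 2383 in diabetic mice. Most of these sums was Spp1, with means of 238 and 1671 FPKM in WT control and diabetic mice and 274 and 1565 in Cfb-/- mice. These shifts went along with the fall of Degs2 and the rises of Sptlc2, Cers4, and Ormdl3, and their part in these changes was not tested.

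Of the other lists, macrophage markers rose for 5 of 5 genes in WT mice and 4 of 5 in Cfb-/- mice, fibroblast markers for 5 of 5 in both, and lymphocyte markers for 5 and 3 of 7. Endothelial markers rose for 3 and 4 of 5 and podocyte markers for 2 and 5 of 5. For comparison, 36.2% of all tested genes passed as higher in WT mice and 27.4% in Cfb-/- mice, so that some of these counts are near that share. In the thick limb and distal tubule 1 of 5 rose in each genotype, and in the collecting duct 3 rose and 1 fell of 6 in WT mice and 0 passed in Cfb-/- mice. Adipocyte markers rose for 4 of 4 tested genes in WT mice and for 1 of 4 in Cfb-/- mice. In Cfb-/- diabetic mice Cfd, Lep, and Plin1, 3 of these adipocyte markers, were listed at 0 in every mouse, as were Lep and Plin1 in WT controls. With median-ratio scaling some of these counts were lower. In WT mice 3 lymphocyte, 2 endothelial, 1 collecting duct, and 0 podocyte markers rose, and in the thick limb and distal tubule 0 rose and 1 fell. In Cfb-/- mice 2 lymphocyte, 0 adipocyte, and 0 thick limb and distal tubule markers rose, and 1 collecting duct marker fell.

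Finally, the genes most like Degs2, Cers4, and Sptlc2 over the 14 mice were sought among 11396 genes with a mean of at least 1 FPKM, by Pearson's r on log2 values after median-ratio scaling. For Degs2 they were Vrk3 (r = 0.986), Grb7 (0.977), and Hook2 (0.975). Grb7, for example, was at a mean of 42.0 FPKM in WT control and 22.8 in WT diabetic mice. For Cers4 they were Slc8b1 (0.941), Chst14 (0.938), and Optn (0.934), and for Sptlc2 Ipo5 (0.865), Rnf217 (0.863), and Nrip1 (0.857). The 14 mice share the split into diabetic and control groups, and these values are a description only. Between members, Degs1 and Degs2 had an r of 0.81 and Sptlc1 and Cers4 one of -0.83 by the same measure.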

How the data were processed

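Kidney RNA-seq values of 14 mice were analysed, in 4 groups set by the sample labels. The treatment text is the same for all mice, so the sample titles and the disease label were used. The authors deposited 1 FPKM value for each gene of each mouse. The unit is inferred, since the values are not whole, have no fixed total per mouse, and move in steps that depend on the gene. Stranded mRNA libraries had been sequenced from both ends. The submitters' processing notes name Trimmomatic, HISAT2, Cufflinks, HTSeq, DESeq, and build GRCm38.p6, without versions. The study's methods describe size factors and a negative binomial test between groups. How the alignment and counting tools were used is not given in the sources used here. Absolute depth is unknown.

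limma 3.58.1 in R 4.3.3 was fitted with a mean-variance trend to log2(FPKM + 0.1) of the 14912 of 21878 genes that reached 0.1 FPKM in 3 or more mice, with a mean per group. Fold changes on this scale understate changes of low genes. P-values were adjusted after Benjamini and Hochberg over all tested genes, at a threshold of 0.05. The fit was tested on simulated data. Exact two-sided permutation tests were run in Python 3.11.15 with numpy 2.4.6 and scipy 1.17.1, and figures were drawn with matplotlib 3.10.9. Each library is 1 mouse, and no pair of libraries was identical (r within groups 0.981 to 0.990). The members, the lists, and the tests were chosen with earlier results of these data known. The text names all 10 members, the other genes of the route, the called substrate genes with the largest change in each direction, and the 3 genes most like each of the 3 members with the largest mean change. Alternatives were other pseudocounts, filters, and scalings, the replicate number as a block, the compared groups alone, and leaving out each mouse.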

Additional observations from a re-analysis of the deposited data

Results flagged for a closer look

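In the 2 groups of 4 mice, each of the 10 members, the other 7 genes of the route, and the 6 ratios was examined for a mouse far from the others, 46 cases in all, of which chance flags about 1 in 20. Sptlc1 in WT diabetic mouse 2 was at 18.7 FPKM, whereas the other 3 WT diabetic mice were at 14.9 to 15.6. Without that mouse the log2 fold change of Sptlc1 in WT mice was -0.32. The ratio of Cers5 to Cers2 was 0.220 in WT diabetic mouse 4 and 0.181 to 0.188 in the others of the group. Cers3 was at 0.0258 FPKM in Cfb-/- diabetic mouse 3 and at 0.0121 to 0.0136 in the others, a level at which all values are close to the floor.

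For 3 genes of the route with low levels, the difference between genotypes in the change with diabetes had an unadjusted exact p under 0.05. The genotype was permuted separately among diabetic and among control mice. The difference, Cfb-/- minus WT, was -2.24 on the log2 scale for Cers3 (exact permutation p = 0.00143, the smallest these mice can give), -5.86 for Sptssb (exact p = 0.0300), and 0.79 for Cers1 (exact p = 0.0386). In all, 23 such differences were examined, and in limma 0 of the 3 passed after adjustment over all genes (adjusted p = 0.699 for Cers3, 0.779 for Sptssb, and 0.779 for Cers1). The exact p-values are not adjusted over the 23. Cers3 met the filter mainly through WT diabetic mice, so its difference is not independent of that choice. The span of Cers1 overlaps Gdf1 on the same strand, and its values are uncertain. Beside Cers3 and Sptssb stand the urothelium markers, whose summed FPKM was 0.690 to 46.3 in WT diabetic mice and 1.22 to 3.15 in Cfb-/- diabetic mice. Their part in these differences was not tested.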

How the results depend on the processing

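The falls of Degs2 and the rises of Ormdl3 kept their direction and passed in all 22 alternatives in each genotype. The changes of the ratios of Sptlc2 to Sptlc1, Cers4 to Cers2, and Degs2 to Degs1 did so in all 15 examined for ratios. Quantile normalization was not among those 15. With it Cers4 changed by 0.17 and Cers2 by 0.12 in WT mice, and by -0.053 and 0.050 in Cfb-/- mice. The rise of the Cers4 to Cers2 ratio is therefore not shown to hold in that scaling. Genes called numbered 4775 to 7503 over the alternatives in WT mice and 3716 to 5569 in Cfb-/- mice. Scaling moved the members' calls most. With median-ratio scaling 7 members were called in WT mice and 5 in Cfb-/- mice, against 6568 and 4756 of 14912 genes. Some signs turned there, with log2 fold changes of -0.22 for Cers5 in WT mice and -0.071 for Cers6 in Cfb-/- mice. With quantile normalization the sign turned for Cers2 (0.12 in WT, 0.050 in Cfb-/- mice), Cers5 (-0.063 in WT mice), Sptssa (0.021), Cers4 (-0.053), and Cers6 (-0.25), the last 3 in Cfb-/- mice. The cause was not tested. With the 2 compared groups alone, 1 member was called in Cfb-/- mice, Degs2, against 4860 of 14504 genes.

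Deviations of same-numbered mice correlated at -0.14 to 0.08 in WT mice and at 0.0045 to 0.24 in Cfb-/- mice. Differently numbered mice were not compared in this way, so these values cannot decide whether the replicate numbers pair the mice. With the replicate block, 3 members were called in WT mice and 1, Degs2, in Cfb-/- mice, 6278 and 4463 genes in all, and Cers5 turned to -0.0079 in WT mice.

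Over the fits without 1 mouse, 3 to 5 members were called in WT mice, against 4775 to 7503 of all genes. In Cfb-/- mice 1 to 3 members were called, against 3716 to 5569 genes. These fits tested 14827 to 14897 genes. Only 1 member was called in Cfb-/- mice without Cfb-/- diabetic mouse 1 (3856 genes in all) or Cfb-/- control mouse 3 (4499). Changes near 0 then spanned both signs, namely Cers2 (-0.086 to 0.010) and Cers5 (-0.034 to 0.047) in WT mice and Sptssa (-0.080 to 0.052), Cers2 (-0.063 to 0.0014), and Cers6 (-0.026 to 0.26) in Cfb-/- mice. The log2 ratio to Sptlc1 of Sptssa changed by 0.12 to 0.18, and the ratios to Cers2 by -0.039 to 0.029 for Cers5 and by 0.25 to 0.50 for Cers6.

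DESeq2 and edgeR need read counts and were not run. Absolute depth is unknown, so that no counting interval can be given, and 4 mice against 3 limit what small differences can be shown. Diet and STZ were given together.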
